A study of Mus musculus with 24 samples.

Results

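The genes described here are the receptors for the Fc part of immunoglobulin G, the adaptor chains they signal through, the related receptor Trem1 and the kinase Syk, 8 genes of the 17097 that could be measured by gene. They were chosen by symbol (Fcgr1, Fcgr3, Fcgr4, Fcgr2b, Fcer1g, Tyrobp, Trem1 and Syk), not by a rule on their values, though with earlier results of these data known. All 8 were found on the array, with 13 probe sets between them. Where a gene had several probe sets, the one with the highest mean over the 24 arrays stands for it, and the others are given where they differ.

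The study compared the spinal cords of mice with experimental autoimmune encephalomyelitis (EAE), a model of multiple sclerosis in which T cells against the myelin protein MOG attack the central nervous system. The groups were 5 wild-type recipients of Th17 cells, 5 wild-type recipients of Th1 cells, 5 naive wild-type mice, 4 recipients of Th17 cells labelled Act1 KO and 5 naive mice labelled Act1 KO, with 1 array per mouse. Recipients received 500 rad of sublethal irradiation and, 4 hours later, MOG35-55-specific cells that had been cultured for 5 days with IL-12 and an antibody against IL-23p19 (Th1) or with IL-23 (Th17). Naive mice are labelled as unchallenged and called untreated in the methods, so irradiation and cell transfer cannot be told apart in a comparison with them. The methods place the mice at 8 to 12 weeks of age, all female, and the cords at 12 days after transfer, which the labels call the onset of symptoms and the paper the peak of disease. Act1, encoded by Traf3ip2, is the adaptor of the IL-17 receptor. The labels do not describe the Act1 allele, they say only wild type for the control mice where a figure of the paper names heterozygous mice, and the transferred cells' genotype is not given in them.

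Activating Fc receptors and many lectin and immunoglobulin-like receptors of myeloid cells have short cytoplasmic tails and signal through partner chains. Those partners, the Fc receptor gamma chain (Fcer1g) and DAP12 (Tyrobp), carry an immunoreceptor tyrosine-based activation motif (ITAM), which Src family kinases phosphorylate and to which Syk then binds. The inhibitory receptor Fcgr2b carries the opposite motif, an ITIM, which recruits the phosphatase SHIP1 (Inpp5d). In the healthy central nervous system these genes are mainly expressed by microglia, and in inflammation also by monocytes, macrophages and neutrophils that enter from the blood. RNA of whole cords was measured, so a higher share of such cells and more RNA per cell cannot be told apart.

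Of the 8 genes, 7 have a promoter window in the RefSeq-derived table for GRCm38.p6, which runs from 250 bases before to 50 bases after a start site, and Tyrobp has none there. Each window was searched on both strands for the core bound by PU.1 (GAGGAA), the ETS factor of the myeloid lineage, for the interferon-gamma activated site or GAS (TTCNNNGAA), for the core of the interferon-stimulated response element (GAAA, any 2 bases, GAAA) and for a C/EBP core (TTGCNNAA). The PU.1 core was found for 5 of the 7 genes, against 31.3% of 27025 genes in the table (28.3% of 32851 windows). GAS was found for 2 (Fcgr1 and Trem1), against 9.55% of genes. The response element core was found for 1 (Fcgr4, at position −73 from the start site), against 3.99% of genes, and the C/EBP core for 1 (Fcgr3), against 12.2%. The first 4 stretches below hold the PU.1 core of the activating receptors, close to the start site, and of Trem1, where it begins at position −162. That of Fcgr2b, the inhibitory receptor, is shown because its window had none of the 4 motifs. The window of the adaptor Fcer1g, not shown, also had none. The stretches are written 5′ to 3′ on the gene's strand, with the PU.1 core (as TTCCTC where it lies on the other strand) and GAS in capitals.
Fcgr1 (chr3:96293999-96294098, minus strand): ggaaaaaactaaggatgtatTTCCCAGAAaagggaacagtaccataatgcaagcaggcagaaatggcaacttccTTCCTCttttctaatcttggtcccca
Fcgr3 (chr1:171059384-171059429, minus strand): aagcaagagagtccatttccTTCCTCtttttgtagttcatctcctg
Fcgr4 (chr1:171018884-171018929, plus strand): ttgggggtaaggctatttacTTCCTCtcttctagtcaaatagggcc
Trem1 (chr17:48232548-48232602, plus strand): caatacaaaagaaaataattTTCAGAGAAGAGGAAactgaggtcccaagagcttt
Fcgr2b (chr1:170976052-170976131, minus strand): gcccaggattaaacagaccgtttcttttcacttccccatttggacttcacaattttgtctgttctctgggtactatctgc
In Fcgr1, Fcgr3 and Fcgr4 the PU.1 core lay on the opposite strand and began at positions −55, −6 and −22 from the start site, for Fcgr3 that of its first window. In Trem1 it followed directly after the GAS match, which began at position −171. The fifth gene, Syk, had it in the second of its 2 windows, at position −9. These are matches of letters in the reference, and neither binding nor chromatin was measured. On GRCm38.p6 Fcgr2b (chr1:170960558-170976071), Fcgr4 (chr1:171018926-171029761), Fcgr3 (chr1:171051169-171065915) and Fcer1g (chr1:171229572-171234349) lie next to or near each other on chromosome 1, Fcgr1 on chromosome 3, Tyrobp on chromosome 7, Syk on chromosome 13 and Trem1 on chromosome 17.

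Values are RMA expression values on the log2 scale, on which a difference of 1 is a 2-fold change, and levels of different genes are not comparable because each probe set binds with its own strength. Array medians lay between 3.46 and 3.57, and the files give no call of detection. A level under its array's median was taken as near the background, and a fold change against such a level is given as "at least", with the median in its place. Principal component 1 carried 82.8% of the variance, and on it the cords of Th17 recipients labelled Act1 KO (−47.5 to −46.4) lay among the naive cords (−49.1 to −46.4). Th1 recipients 4 and 5 (55.0 and 55.9) lay apart from the other 3 (67.8 to 68.5). Traf3ip2, which a knockout should lower, was higher in mice labelled Act1 KO, at 5.69 ± 0.10 in Th17 recipients and 5.56 ± 0.24 in naive mice, than in wild-type mice, at 5.38 ± 0.18 in Th17 recipients, 5.16 ± 0.12 in Th1 recipients and 4.29 ± 0.20 in naive mice (SD, n = 4 in labelled KO Th17 recipients and 5 in the others). Whether its probe set lies in the deleted part was not known here, so the genotype is given as labelled.

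The first question was how the Fc receptors and their signalling chains changed in the cords of wild-type recipients. By limma, Th17 recipients exceeded naive mice for all 8 genes (adjusted p under 0.05 over all genes), whereas 18% of all genes were called higher. All 8 were also called higher in Th1 recipients, against 16.7% of all genes. The median log2 difference over the 8 genes was 4.64 in Th17 and 4.40 in Th1 recipients, where the median of all genes was −0.05 and −0.06. The measured log2 differences of the 4 Fcγ receptors and both adaptors lay between 4.17 and 7.03 in both kinds of recipients, and those of Trem1 and Syk between 0.67 and 1.24. For Fcgr1, Fcgr4, Trem1 and Syk, whose naive values were all near the background, the rise at the brightest probe set is a lower bound. For Fcgr1 in Th1 recipients that bound was 3.73 on the log2 scale at the probe set that stands for it.

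**Figure D1:**
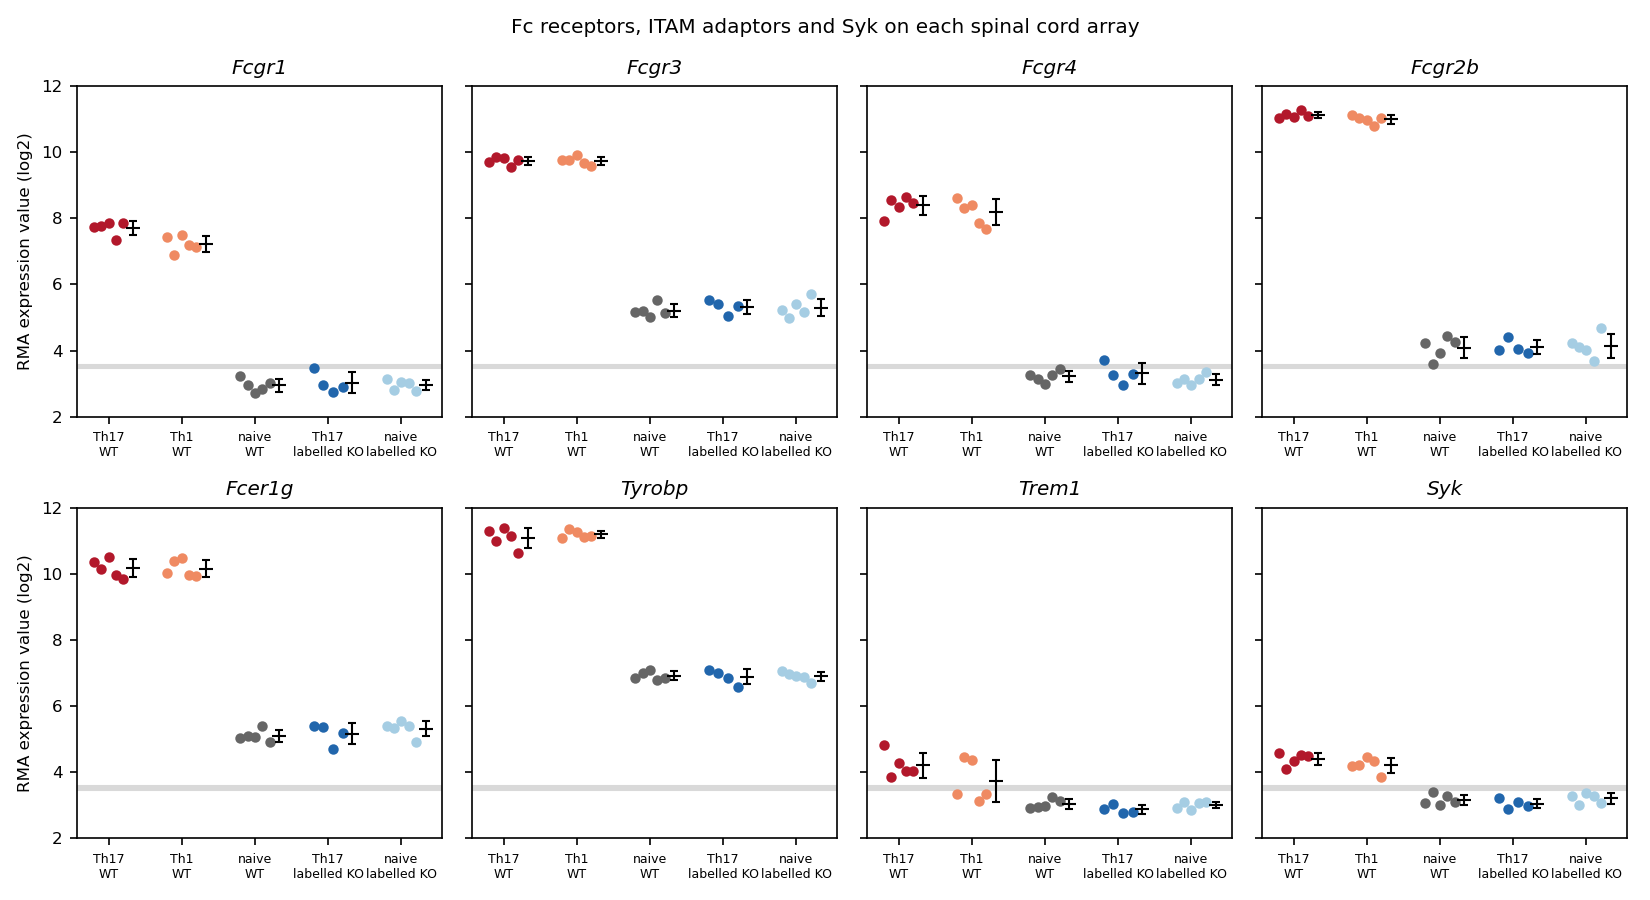
RMA expression values (log2, vertical axis) of the 8 genes on each of the 24 spinal cord arrays, by group, with the mean and SD in black beside the points and the range of array medians as a grey band. Both groups of wild-type recipients lie far above the naive mice for 6 of the genes, Trem1 and Syk move by less, and Th17 recipients labelled Act1 KO lie among the naive mice.

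Among the activating receptors, Fcgr1 encodes FcγRI (CD64), the high-affinity receptor of monocytes and macrophages. It stood at 7.74, 7.77, 7.87, 7.34 and 7.86 in Th17 recipients, at 7.45, 6.89, 7.50, 7.19 and 7.12 in Th1 recipients and at 3.25, 2.96, 2.72, 2.83 and 3.01 in naive wild-type mice. Every recipient lay far above every naive mouse, whose values were all under their array's median. At this probe set Fcgr1 was therefore at least 18.5-fold higher in Th17 recipients (log2 difference 4.76, SE 0.14, adjusted p = 9.59e-21) and at least 13.2-fold higher in Th1 recipients (4.28, SE 0.14). The other Fcgr1 probe set rose by less, by 2.85 in Th17 and 2.13 in Th1 recipients (SE 0.13 each). Its naive values (3.04 to 3.32) were also near the background, so the size of the increase depended on the set.

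Fcgr4 encodes the FcγRIV of mice, which binds IgG2a and IgG2b with intermediate affinity. It was 7.91, 8.57, 8.35, 8.64 and 8.47 in Th17 recipients, 8.62, 8.30, 8.42, 7.86 and 7.68 in Th1 recipients and 3.27, 3.14, 3.00, 3.25 and 3.45 in naive mice. All naive values were again near the background, and the increase was at least 29.5-fold in Th17 recipients (log2 difference 5.17, SE 0.16) and at least 25.5-fold in Th1 recipients (4.96, SE 0.16). Th1 recipients 4 and 5, which lay apart on principal component 1, were the lowest of their group.

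Fcgr3, the low-affinity activating receptor FcγRIII, was measurable in naive cords, at 5.21 ± 0.19 (SD, n = 5). It reached 9.74 ± 0.12 in Th17 recipients and 9.74 ± 0.12 in Th1 recipients (n = 5 each), the narrowest spread among the activating receptors. Its increase was 23.0-fold in Th17 recipients (log2 difference 4.53, 95% confidence interval 4.29 to 4.76) and 23.1-fold in Th1 recipients (4.53, 4.29 to 4.77).

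The inhibitory receptor Fcgr2b showed the largest measured difference of the 8 at its brightest probe set. It was 11.04, 11.16, 11.05, 11.27 and 11.10 in Th17 recipients, 11.11, 11.04, 10.98, 10.78 and 11.04 in Th1 recipients and 4.22, 3.60, 3.94, 4.45 and 4.25 in naive mice. The difference of 7.03 (SE 0.15, adjusted p = 1.57e-23) corresponds to 131-fold in Th17 recipients and ranked 19 of the 17097 genes by size, and in Th1 recipients it was 6.90 (119-fold, SE 0.15). That probe set has the suffix that Affymetrix gives to sets whose probes are shared by several transcripts, possibly of different genes, and Fcgr2b and Fcgr3 are close relatives in sequence. The other 3 probe sets of Fcgr2b rose by 5.16, 5.97 and 6.01 in Th17 recipients and by 5.12, 5.72 and 5.86 in Th1 recipients. The increase was thus present at each of the 4, but its size depended on the set. Naive values were near the background at the set that rose by 6.01 (2.92 to 3.22), and in part at that of 5.97 (3.24 to 3.86).

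On each array the activating receptors were also set against Fcgr2b, as the difference of the 2 genes relative to its mean in naive wild-type mice. Fcgr3 minus Fcgr2b was −2.50 (−2.83 to −2.34) in Th17 recipients and −2.37 (−2.56 to −2.19) in Th1 recipients, while single naive mice ranged between −0.23 and 0.47. Fcgr4 minus Fcgr2b was −1.86 and −1.94, and Fcgr1 minus Fcgr2b −2.27 and −2.62, in Th17 and in Th1 recipients. As measured, the activating receptors rose less than the inhibitory one at its brightest probe set in all 10 recipients. The naive levels of Fcgr1 and Fcgr4 near the background leave their own increase as a lower bound, and the Fcgr2b set that rose least (5.16 in Th17 recipients) rose about as much as Fcgr4.

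Of the adaptors, Fcer1g, the common gamma chain that Fcgr1, Fcgr3 and Fcgr4 need for surface expression and signalling, was 10.34, 10.14, 10.51, 9.97 and 9.84 in Th17 recipients, 10.03, 10.37, 10.47, 9.96 and 9.93 in Th1 recipients and 5.03, 5.09, 5.05, 5.39 and 4.92 in naive mice. Its increase was 33.5-fold in Th17 recipients (log2 difference 5.07, SE 0.15) and 33.3-fold in Th1 recipients (5.06, SE 0.15). Tyrobp, which encodes DAP12, the partner of Trem1, Trem2 and Clec5a, was the gene of the 8 with the highest value in naive cords. It was 11.29, 10.97, 11.38, 11.15 and 10.63 in Th17 recipients, 11.09, 11.34, 11.27, 11.11 and 11.14 in Th1 recipients and 6.86, 7.01, 7.09, 6.78 and 6.85 in naive mice. The groups of recipients overlapped each other and neither overlapped the naive mice. Tyrobp rose 18.0-fold in Th17 recipients (4.17, SE 0.12) and 19.3-fold in Th1 recipients (4.27, SE 0.12). As measured on the same array, Fcer1g rose more than Tyrobp, by 0.90 on the log2 scale (0.64 to 1.04) in Th17 recipients. In Th1 recipients the gap was 0.78 (0.61 to 1.02), and naive mice lay between −0.22 and 0.43. Neither adaptor has another probe set to compare, and for Fcgr1 and Fcgr2b the size of the rise depended on the set.

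Trem1, a receptor of neutrophils and monocytes that amplifies inflammation through DAP12, was 4.82, 3.85, 4.28, 4.04 and 4.03 in Th17 recipients and 2.92, 2.94, 2.97, 3.26 and 3.14 in naive mice. At this probe set all Th17 recipients lay above all naive mice, and the group mean was at least 1.63-fold higher (measured log2 difference 1.16, SE 0.20, adjusted p = 2.59e-05). In Th1 recipients it was 3.34, 4.45, 4.38, 3.12 and 3.33, so that recipients 2 and 3 lay within the range of the Th17 recipients and the other 3 were close to naive mice, and the groups overlapped. The difference in Th1 recipients was called (0.67, SE 0.20, adjusted p = 0.00778, exact permutation p = 0.0238, two-sided, n = 5 each), but not at the other Trem1 probe set (0.18, adjusted p = 0.268), at which Th1 recipients 2 and 3 were at 2.78 and 3.15, within the range of the other Th1 recipients (2.53 to 3.13) or just above it. The increase in Th17 recipients passed at both sets (0.64 at the other, adjusted p = 8.37e-05). At that other set the means, 3.38 in Th17 recipients and 2.73 in naive mice, were both near the background.

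Syk, the kinase that binds phosphorylated ITAMs, was 4.58, 4.11, 4.33, 4.51 and 4.49 in Th17 recipients, 4.20, 4.23, 4.45, 4.34 and 3.84 in Th1 recipients and 3.05, 3.39, 3.00, 3.27 and 3.10 in naive mice. The recipients did not overlap the naive mice, which were near the background, and the increase was at least 1.86-fold in Th17 recipients (log2 difference 1.24, SE 0.11, adjusted p = 5.17e-10) and at least 1.63-fold in Th1 recipients (1.05, SE 0.11). Between Th17 recipients and naive mice the groups did not overlap for 8 of the 8 genes, against 15% of all genes with Th17 recipients higher, and between Th1 recipients and naive mice for 7 of the 8, against 14.1%. For each of these genes the exact permutation p was 0.0079 (two-sided), the smallest that 5 arrays against 5 can give.

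**Figure D2:**
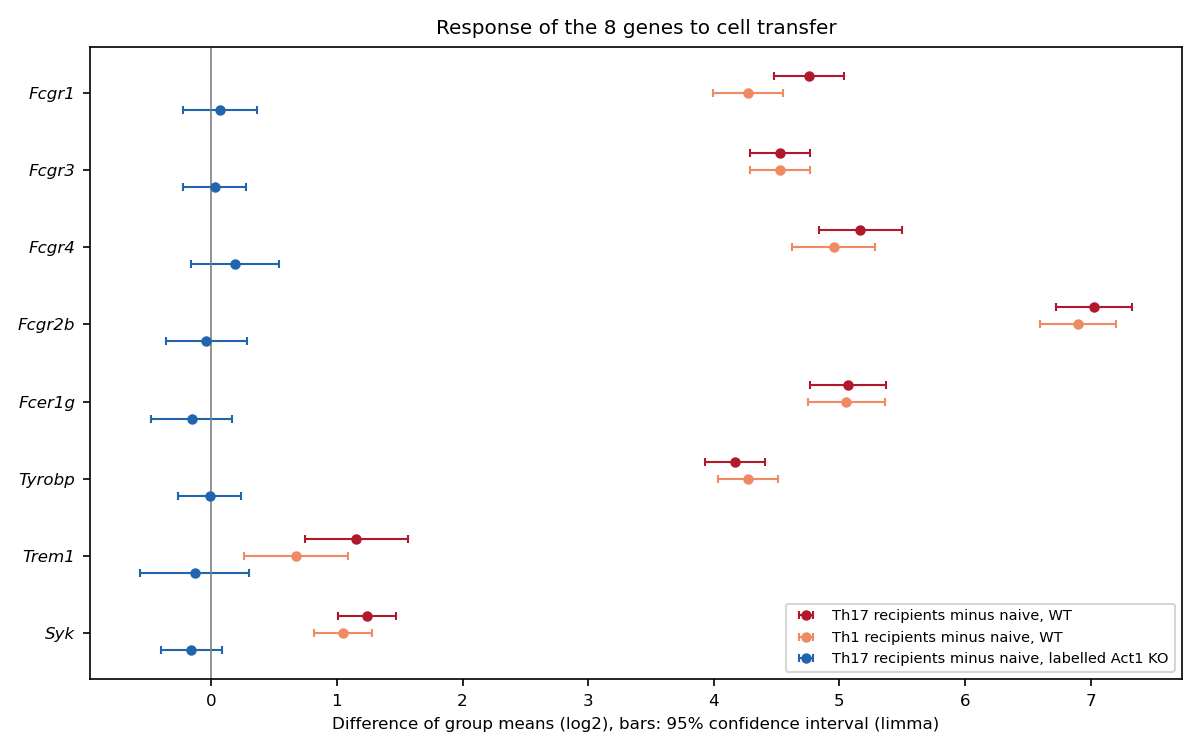
Difference of group means (log2, horizontal axis) for each of the 8 genes in Th17 recipients and Th1 recipients against naive wild-type mice and, in mice labelled Act1 KO, in Th17 recipients against naive mice, with 95% confidence intervals from limma. Fcgr2b lies near 7 in wild-type recipients, the other Fcγ receptors and the adaptors between 4.17 and 5.17, and all intervals of mice labelled Act1 KO include 0.

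Markers of cells that carry these receptors rose for some cell types and not for others. The counts of markers stand beside the share of all genes called higher, 18% in Th17 and 16.7% in Th1 recipients. Of the 17097 genes, 4367 were called lower in Th17 and 4115 in Th1 recipients. In wild-type mice all 5 pan-leukocyte markers (such as Ptprc and Laptm5) were called higher in both kinds of recipients, and their summed linear level was 4748 to 5421 in Th17 recipients, 4977 to 6056 in Th1 recipients and 296 to 328 in naive mice. Of 12 monocyte and macrophage markers, 12 were higher in Th17 and 11 in Th1 recipients, and 5 of them (Ccr2, Plac8, Ms4a7, Arg1 and F13a1) were near the background in naive mice. Of 11 neutrophil markers, 7 and 5 were higher, with a median difference of 0.56 in Th17 and 0.10 in Th1 recipients. Their summed level was 4013 to 4945 in Th17 recipients, 1625 to 3287 in Th1 recipients and 92.0 to 122 in naive mice, and most of it came from Lcn2, which other cells also express (11.73 in Th17 recipients, 11.03 in Th1 recipients and 2.76 in naive mice). Of the 11, 4 (Cxcr2, Ltf, Mpo and Elane) were near the background in Th17 recipients and these and Camp in Th1 recipients. Microglia markers split, with 4 of 8 higher and 4 lower in Th17 recipients and 4 higher and 3 lower in Th1 recipients. B cell markers (6 of 6) and most mast cell and basophil markers (7 of 9) stayed near the background in both kinds of recipients. Of 6 NK cell markers 3 rose, and the other 3 (Ncr1, Klrb1c and Eomes) stayed near the background, in Th17 as in Th1 recipients. Of 5 dendritic cell markers 1 rose (Itgax), 1 fell (Flt3) and 3 (Zbtb46, Xcr1 and Cd209a) were near the background in both kinds of recipients. The part of these cells in the increase of the receptors was not tested. Neuron markers fell, 9 of 9 in both kinds of recipients, as did 5 of 6 oligodendrocyte markers, and all 7 genes that mark the position of the spinal cord had means above the lowest array median in every group, with 5 of the 7 called lower in both kinds of recipients (median −0.56 in Th17 and −0.66 in Th1 recipients).

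Other genes of the pathway are given from lists of related genes. Their counts stand beside the 18% of all genes called higher in Th17 and 16.7% in Th1 recipients. The list of receptors around Tyrobp and Fcer1g, called partner receptors here, is broad and includes the integrin chains Itgb2 and Itgam, Csf1r and Nfam1. Of its 18 measured genes, 14 rose and none fell in Th17 recipients, and 13 rose and none fell in Th1 recipients. In Th17 recipients the smallest adjusted p-values belonged to the integrin chain Itgb2 (log2 difference 6.19), to the C-type lectins Clec4e (Mincle, 6.16), Clec4n (Dectin-2, 5.88) and Clec4d (6.18), all of which signal through Fcer1g, and to Clec5a (3.93), which pairs with Tyrobp. Of the 8 other ITAM and DAP10 chains and Zap70, 6 rose in both kinds of recipients. In Th17 recipients the T cell receptor chains Cd3d, Cd3g and Cd3e rose by 4.16, 4.14 and 2.54, Hcst (DAP10) by 2.46 and the T cell kinase Zap70, a relative of Syk, by 1.86. The B cell receptor chains Cd79a and Cd79b were not called, at 0.04 and 0.17.

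Of 21 kinases and adaptors around Syk, 18 rose and 1 fell in both kinds of recipients. In Th17 recipients they included the adaptors Lcp2 (SLP-76, 4.41) and Lat2 (2.95), the GTPase Rac2 (4.71), the Src family kinase Fgr (2.79) and Prkcd (2.67), and the gene that fell was Fyn, a Src family kinase that neurons and oligodendrocytes also express (−0.53, adjusted p = 1.78e-06). Of 18 ITIM receptors and inhibitory phosphatases, 16 rose and 1 fell in Th17 recipients and 15 rose and 1 fell in Th1 recipients, so that inhibitory partners rose beside the activating ones. In Th17 recipients Ptpn6 (SHP-1) rose by 4.80, Cd300lf by 5.40, Pirb by 4.57, Pilra by 3.97 and Cd33 by 3.16, while the widely expressed phosphatase Ptpn11 was lower by a small amount (−0.23, adjusted p = 0.0258).

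Of 10 other Fc receptors measured, 1 rose and 1 fell in Th17 recipients and 2 rose and 1 fell in Th1 recipients, and 7 of the 10 had means near the background in every group (2.44 to 3.13). The counts that rose were near the share of all genes called higher (18% and 16.7%). Trim21, the cytosolic antibody receptor, which interferon induces, rose by 3.76 in Th17 recipients and by 3.61 in Th1 recipients. Fcrls, a receptor-like gene of microglia, fell by 0.63 and by 1.15. Fcgrt, the neonatal Fc receptor, was called in Th1 recipients (0.48) and not in Th17 recipients (0.06), and it was lower in Th17 than in Th1 recipients (−0.42, adjusted p = 0.0210). The IgE receptor chains Fcer1a and Ms4a2 were among the 7 near the background. Of 5 measured immunoglobulin and plasma cell genes, Prdm1 (1.17), Xbp1 (0.92) and Jchain (0.60) rose in Th17 recipients, Prdm1 and Xbp1 also in Th1 recipients, and Ighm and Ms4a1 were not called (−0.04 and −0.01). Median differences of the lists in Th17 recipients were 1.83 for the partner receptors, 2.16 for the other ITAM chains, 2.07 for the kinases and adaptors, 2.06 for the inhibitory genes and 0.01 for the other Fc receptors, against −0.05 for all genes.

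**Figure D3:**
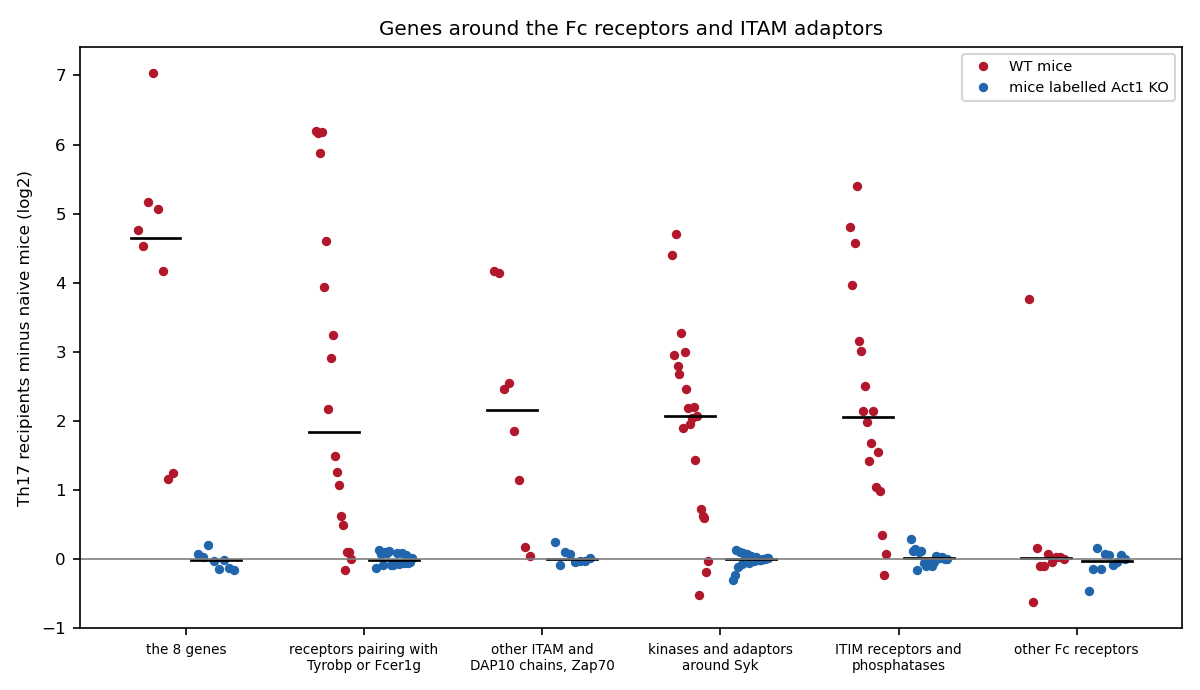
Difference between Th17 recipients and naive mice (log2, vertical axis) for the 8 genes and for 5 lists of related genes, in wild-type mice and in mice labelled Act1 KO, where each point is 1 gene and black lines are medians. The partner receptors, ITAM chains, kinases and inhibitory genes are spread up to 6.19 in wild-type mice, other Fc receptors lie near 0 apart from Trim21 at 3.76, and mice labelled Act1 KO lie near 0 in every list.

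The second question was whether Th17 and Th1 recipients differed. Of the 8 genes, 1 was called, Fcgr1, and 3% of all genes were called between these groups (1.91% with Th17 recipients higher). Fcgr1 was 0.49 higher on the log2 scale in Th17 recipients (1.40-fold, SE 0.14, adjusted p = 0.0483, exact permutation p = 0.0238, n = 5 each), and the groups overlapped through Th17 recipient 4. Its other probe set gave 0.72 (SE 0.13, adjusted p = 0.00166), with means of 6.02 ± 0.37 in Th17 recipients and 5.30 ± 0.22 in Th1 recipients. The call at the brighter set did not hold without any one of Th17 recipients 1, 2, 3 and 5 or Th1 recipients 2, 4 and 5, with adjusted p between 0.0906 and 0.140, and without Th1 recipients 4 and 5 together (0.44, adjusted p = 0.263). In the 3 rows of the title code that hold both groups, Fcgr1 was higher in the Th17 recipient each time, by 0.25, 0.75 and 0.32, but with the row as a block the call was lost (0.49, adjusted p = 0.0946).

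Fcgr1 was also compared with Fcgr3 on the same array, relative to naive wild-type mice. The difference was 0.24 ± 0.13 in Th17 recipients (0.04 to 0.36) and −0.25 ± 0.21 in Th1 recipients (−0.61 to −0.06), without overlap between the 2 groups, while naive mice were spread from −0.46 to 0.35. This ratio was chosen among others after values were known and was not tested.

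Trem1 was 0.48 higher in Th17 than in Th1 recipients (95% confidence interval 0.07 to 0.89), which did not pass after adjustment (adjusted p = 0.282, exact permutation p = 0.151, n = 5 each). At its other probe set the difference was of the same size with a smaller error (0.46, SE 0.12, adjusted p = 0.0331), from 3.38 ± 0.27 in Th17 recipients and 2.92 ± 0.26 in Th1 recipients, both under the array medians. In rows of the title code that hold both groups, the Trem1 difference was 0.44, 0.96 and 0.51. The other genes did not pass, and their intervals bound a difference between Th17 and Th1 recipients to between −0.24 and 0.24 for Fcgr3, −0.12 and 0.54 for Fcgr4, −0.17 and 0.43 for Fcgr2b, −0.29 and 0.31 for Fcer1g, −0.35 and 0.13 for Tyrobp and −0.04 and 0.42 for Syk.

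**Figure D4:**
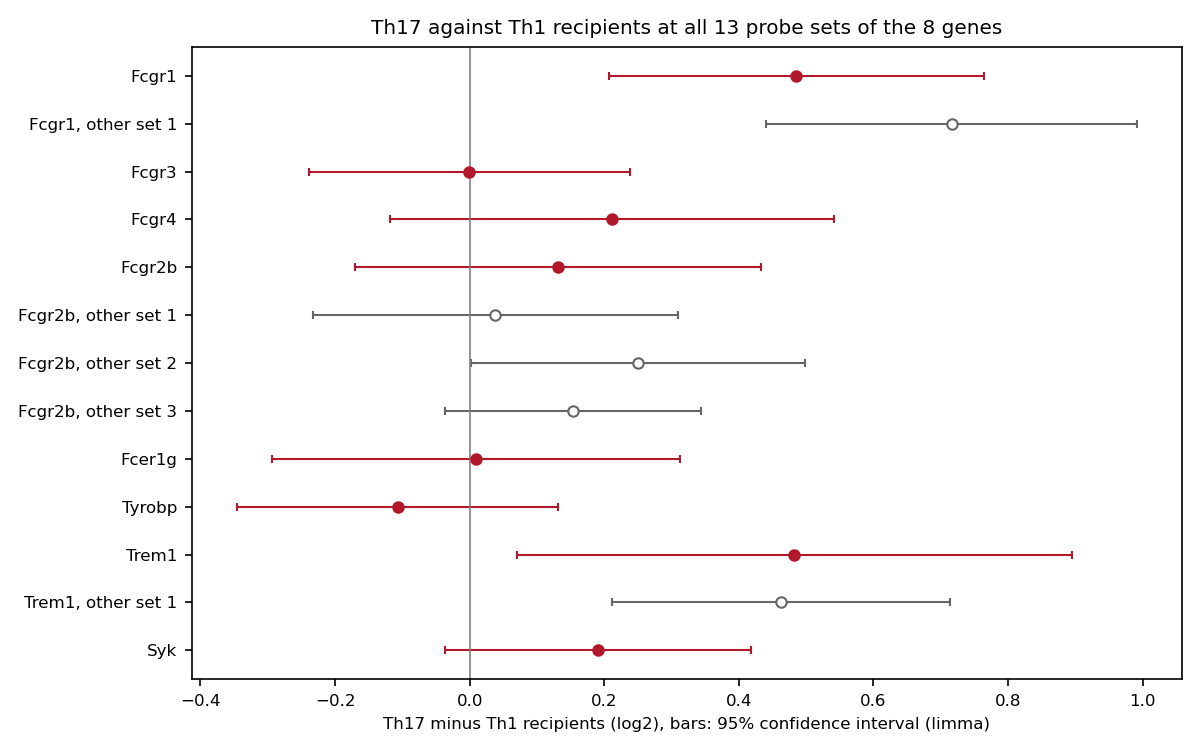
Difference between Th17 and Th1 recipients (log2, horizontal axis) at the probe set that stands for each gene (filled) and at the other probe sets of Fcgr1, Fcgr2b and Trem1 (open), with 95% confidence intervals from limma. Both sets of Fcgr1 (0.49 and 0.72) and both sets of Trem1 (0.48 and 0.46) lie on the side of the Th17 recipients, whereas Fcgr3, Fcer1g and Tyrobp lie around 0.

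Neutrophil markers differed between the same groups, with 6 of 11 higher and none lower in Th17 recipients, among them S100a9 (log2 difference 3.95) and Mmp8 (2.43). Of 12 monocyte and macrophage markers, 6 were called higher and none lower, among them Plac8 (1.34) and F13a1 (1.07). The other 6 were not called and went both ways: Mrc1 (−1.14, adjusted p = 0.0608), Cd68 (−0.17), Adgre1 (−0.08), Ms4a7 (−0.07), Fn1 (0.50) and Ly6c1 (0.08). Pan-leukocyte markers did not, with 0 of 5 called, and 1.91% of all genes were called higher in Th17 recipients. Whether the differences of Fcgr1 and Trem1 follow from these cells was not tested. Among the partner receptors, Clec4e (0.74), Trem3 (0.48) and Itgam (0.52) were higher in Th17 recipients, 4 of 18 in all, and Trem2, the phagocytic receptor of microglia and macrophages (−0.71, adjusted p = 0.0037), and Cd300lb (−0.58) were lower. Of the other lists, Cd247 (0.49), Lat (0.56) and Pirb (0.45) were higher and the ITIM receptor Cd22 lower (−0.80) in Th17 recipients.

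The third question was whether these genes responded in mice labelled Act1 KO. None of the 8 was called between Th17 recipients and naive mice labelled Act1 KO, none had an unadjusted limma p under 0.05, and the methods' t-test also called none. Among all 17097 genes limma called 0%, with 1070 at an unadjusted p under 0.05. Fcgr1 stood at 3.48, 2.97, 2.76 and 2.89 in Th17 recipients labelled Act1 KO and at 3.14, 2.81, 3.04, 3.01 and 2.77 in naive mice labelled Act1 KO. Fcgr2b stood at 4.01, 4.41, 4.05 and 3.94 in the Th17 recipients and at 4.24, 4.10, 4.01, 3.68 and 4.68 in the naive mice. Tyrobp stood at 7.10, 6.99, 6.86 and 6.58 in the Th17 recipients and at 7.05, 6.96, 6.89, 6.89 and 6.68 in the naive mice. Values of both groups overlapped for each of the 8 genes, and 1.5% of all genes did not overlap. The differences ran from −0.16 for Syk to 0.19 for Fcgr4, and their 95% confidence intervals from −0.57 (Trem1) to 0.54 (Fcgr4), far from the increases of wild-type mice. Pan-leukocyte markers were also not called (0 of 5, summed level 289 to 316 in Th17 recipients and 287 to 360 in naive mice labelled Act1 KO), nor was any gene of the lists.

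The 8 genes did not differ in naive mice by genotype either, with 0 of 8 called (0 at an unadjusted limma p under 0.05) and 0.585% of all genes called. Differences between naive mice labelled Act1 KO and naive wild-type mice ran from −0.10 for Fcgr4 to 0.22 for Fcer1g (95% confidence interval −0.08 to 0.52). Among Th17 recipients, mice labelled Act1 KO were lower than wild-type mice for all 8 genes, against 17.6% of all genes called lower. The log2 difference was −7.02 for Fcgr2b, −5.00 for Fcer1g, −4.41 for Fcgr3 and −4.20 for Tyrobp. The other 4 genes were near the background in mice labelled Act1 KO, on 4 of 4 arrays for Fcgr1, Syk and Trem1 and on 3 of 4 for Fcgr4. At the probe sets that stand for them they were at least 28.5-fold lower for Fcgr4, 18.6-fold for Fcgr1, 1.87-fold for Syk and 1.63-fold for Trem1. At the other sets the measured log2 difference was −2.74 for Fcgr1 and −0.67 for Trem1. No array of the 4 labelled Act1 KO overlapped the 5 wild-type ones for any of these genes (15.1% of all genes did not overlap in this direction), and the exact permutation p was 0.0159 for each, the smallest possible for 4 against 5.

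Whether the response to Th17 cells differed by genotype was tested as an interaction, and all 8 genes passed with a smaller response in mice labelled Act1 KO, against 13.8% of all genes in that direction. It was −7.07 (SE 0.21) for Fcgr2b, −5.22 (0.21) for Fcer1g, −4.97 (0.23) for Fcgr4, −4.69 (0.20) for Fcgr1, −4.50 (0.17) for Fcgr3 and −4.18 (0.17) for Tyrobp. For Syk it was −1.40 (SE 0.16, adjusted p = 1.03e-07) and for Trem1 −1.29 (SE 0.29, adjusted p = 0.00102). For Fcgr1, Fcgr4, Syk and Trem1 these are measured values that rest on groups near the background. At the other probe sets the interaction was called but smaller, at −2.90 for Fcgr1, −0.67 for Trem1 and −5.08, −5.87 and −5.99 for Fcgr2b. With the row of the title code as a block the Trem1 interaction was −0.68 and no longer called (adjusted p = 0.172). Cords of Th17 recipients labelled Act1 KO also lacked the rise in leukocyte markers, and the clinical state of these mice is not given in the labels.

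Across all 24 arrays the 4 Fcγ receptors and both adaptors followed each other closely, with Pearson's r between 0.989 and 0.997 over their 15 pairs. Pairs with Syk had r between 0.948 and 0.961, and pairs with Trem1 between 0.812 and 0.844. These correlations are a description that mostly carries the gap between wild-type recipients and all other mice. After each group's mean was removed, r over the 15 pairs ran from −0.20 to 0.57, with a median of 0.30. Over the 24 arrays the gene most like Fcgr1 was Acod1 (r = 0.997), most like Fcgr3 AW112010 (0.998), most like Fcgr4 Ifitm3 (0.998), most like Fcgr2b Lilrb4a (0.998), most like Fcer1g Ugt1a6a (0.997), most like Tyrobp Cybb (0.998) and most like Syk Coro1a (0.968). Trem1 was most like Uhrf1 (0.955), a gene of DNA replication, and after group means were removed its closest genes were the amino acid transporter Slc1a5 (r = 0.921) and Uhrf1 (0.919), both above any such value of the other 7 genes (at most 0.854). In Th1 recipients Slc1a5 was 5.04 and 5.27 in recipients 2 and 3, in which Trem1 was also high at its brighter probe set, and 4.13, 3.99 and 4.13 in recipients 1, 4 and 5. At the other Trem1 set recipient 2 (2.78) lay under recipients 1 (3.13) and 5 (2.98), and likeness was not examined at that set. Values of the neutrophil markers S100a9, Mmp8, S100a8 and Csf3r in single Th1 recipients, chosen after values were seen, are given as description. A link of Trem1 with neutrophils was not tested. S100a8 was highest in recipient 1 (7.01) and lowest in recipient 5 (5.34). Csf3r was lowest in recipient 2 (5.34) and highest in recipients 4 and 5 (6.72 and 6.83). S100a9 was highest in recipient 1 (6.49, against 5.02 and 3.57 in recipients 2 and 3), and Mmp8 was high in recipients 1, 2 and 3 (5.62 to 5.87) and low in recipients 4 and 5 (3.41 and 3.18).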

How the data were processed

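Spinal cord RNA of 24 mice was hybridized to Affymetrix 3′ IVT arrays, 1 per mouse. The authors deposited log2 expression values of 45118 probe sets computed with RMA. That method subtracts background, forces all arrays onto one distribution and condenses the probes of a set, and it would hide a change common to all genes. The RMA version is not given in the sources used here. Of the probe sets 28898 have 1 symbol in the platform annotation, 551 several and 15669 are not listed, and those without a single symbol were left out. Each of 17097 genes was represented by its brightest set. Groups were fitted together with limma 3.58.1 in R 4.3.3 (lmFit, eBayes, two-sided, Benjamini-Hochberg over all genes, calls at an adjusted p under 0.05), after a test on simulated data, and single genes were permuted exactly in scipy 1.17.1. The number of arrays limits the precision.

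The members, lists, markers and motifs were chosen with earlier results of these data known. All 8 members are named. From each list up to 5 genes with the smallest adjusted p and those against the list's direction are named. Those making up a count of 5 or fewer are named too. Added after values were seen were the B cell receptor chains, IgE receptor chains, S100a9, Mmp8, S100a8 and Csf3r. So were 2 examples of pan-leukocyte, neutrophil and monocyte markers and the monocyte and macrophage markers not called between Th17 and Th1 recipients. Alternatives covered probe sets, scaling, the variance model, groups in the fit, blocks, arrays left out, the methods' t-test and a 2-fold threshold. Same-group arrays correlated at 0.986 to 0.997 and none were identical. Promoters came from RefSeq on GRCm38.p6.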

Additional observations from a re-analysis of the deposited data

Results flagged for a closer look

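In Th17 recipients, Fcgr1 on array 4 (7.34) lay apart from the other 4, of which the nearest was at 7.74, a gap of 0.758 of the group's range. Of 40 groups of arrays examined for such gaps this was the only one, and chance gives about 1 in 20.

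The Th17 response differed between genotypes for all 8 genes in the fit without a block, with the response in mice labelled Act1 KO minus that in wild-type mice at −4.69 for Fcgr1, −4.50 for Fcgr3, −4.97 for Fcgr4, −7.07 for Fcgr2b, −5.22 for Fcer1g, −4.18 for Tyrobp, −1.29 for Trem1 and −1.40 for Syk (interaction in limma, all adjusted p under 0.05). With the title code row as a block the Trem1 value was −0.68 and was not called (adjusted p = 0.172). The sizes for Fcgr1, Fcgr4, Trem1 and Syk rest on groups near the background. Those of Fcgr1, Fcgr2b and Trem1 were smaller at their other probe sets.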

How the results depend on the processing

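Apart from Th17 against Th1 recipients, the number of the 8 genes called stayed within 1.5 times the main value under each alternative run, and no called difference changed sign. Between Th17 and Th1 recipients, where 1 gene (Fcgr1) was called, the count was 0 with median centring (adjusted p of Fcgr1 0.0688), quantile normalization (0.0510), a trended and robust variance (0.0573), the fit of the compared groups alone (0.0881), the title code row as a block (0.0946), probe sets of plain type (0.0507, which leaves out Fcgr2b and Syk), without Th1 recipients 4 and 5 together (0.263), by the methods' t-test (0.268) and with a 2-fold threshold, and 0 to 1 when single arrays were left out. It was 2, with Trem1 added, for the mean of all probe sets (adjusted p of Trem1 0.0246) and with the other Trem1 set (0.0331). The cause was not tested. Trem1 in Th1 recipients against naive mice was no longer called with its other set, with ribosomal protein centring (0.20, adjusted p = 0.298), by the methods' t-test (adjusted p = 0.104) or with a 2-fold threshold. Centring on 66 ribosomal protein genes moved all genes by −0.42 in Th17 and −0.47 in Th1 recipients against naive mice, and 1704 genes were then higher and 13189 lower in Th17 recipients, in place of 3069 and 4367. For Th1 recipients these counts were 1467 and 13782 in place of 2854 and 4115. In Th17 recipients labelled Act1 KO against wild-type ones they were 12467 higher and 1791 lower, in place of 4212 and 3002, for the interaction 9334 and 1516 in place of 3114 and 2365, and for Th17 against Th1 recipients 375 and 105 in place of 327 and 186. A filter on dim genes kept 8548 genes and 6 of the 8. Deviations of same-numbered arrays had r between −0.290 and 0.437 over 46 pairs, 16 above 0.1, so the numbers were not taken to pair the samples. The arrays numbered 2 of the 4 groups other than wild-type Th17 recipients did deviate together, with r between 0.130 and 0.437 in each pair, and with the replicate block 8 of the 8 genes were called in each wild-type comparison with naive mice, 1 for Th17 against Th1, and 0 in mice labelled Act1 KO. Over all genes, 513 were called between Th17 and Th1 recipients, against 302 with the dim filter, 282 in the fit of the compared groups alone, 320 without Th1 recipients 4 and 5 and 69 by the methods' t-test. Between naive mice of both genotypes 100 were called, against 35 with the row block and 11 by the methods' t-test, and between Th17 recipients and naive mice of the labelled KO genotype 0, with at most 8 (array weights).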
